A study of Setaria viridis with 24 samples.

Results

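Of 20865 genes measured in young Setaria viridis plants, 32 had at least a 2-fold higher level under drought in the day 9 stem while their level in the day 9 crown differed little between drought and watered plants. They were chosen on the authors' group values in FPKM (fragments scaled to transcript length and to sequencing depth) by a drought-to-watered ratio of FPKM + 1 of at least 2 in the day 9 stem, a ratio between 0.8 and the reciprocal of 0.8 in the day 9 crown, and at least 5 FPKM in drought stems at day 9. In all, 157 genes met the stem criteria, and the crown criterion kept these 32 of them. The day 9 drought values of stem and crown that chose the genes are therefore given as a description, with no test. The rule says nothing about day 6, and in the day 6 stem the authors called 10 of the 25 members listed higher under drought, against 0.528% of all listed genes, although 2 of the 10 passed when p-values were adjusted within that comparison alone. The genes are therefore referred to by the day 9 rule and not as genes that respond at day 9 alone.

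Setaria viridis is a C4 grass used as a model for cereals. In grasses most of the root system of an established plant grows from the crown, the compact base of the shoot where successive nodes lie close together, and the stem lies above it. When water is short, grasses slow growth, close stomata and induce protective genes, and the outgrowth of new crown roots is held back. A drought response can differ between pieces of the same shoot, so the level in both regions is given for the genes described here.

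The groups were drought stems at day 9, watered stems at day 9, drought stems at day 6 and watered stems at day 6, and the same 4 combinations for the crown, where days are counted from sowing. Per the labels, each group had 3 libraries, 1 from each of 3 biological repeats, and each library was made from 20 pooled plants potted in sand and peat. Per the labels' protocols, ribosomal RNA was removed and the libraries kept the strand of the transcript. The deposited tables give 1 FPKM value per gene and group with no value for single libraries, so no standard deviation can be given, and the depth of the libraries is unknown. Setaria accession, age at the start of drought and how water was withheld are not stated in these sources. The files carry gene identifiers without names or descriptions, and 0 of the identifiers matched the reference gene table, so neither gene functions nor markers of crown, stem or other cell types could be assigned. Genes are named below by identifier and by the position the files give.

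**Figure D1:**
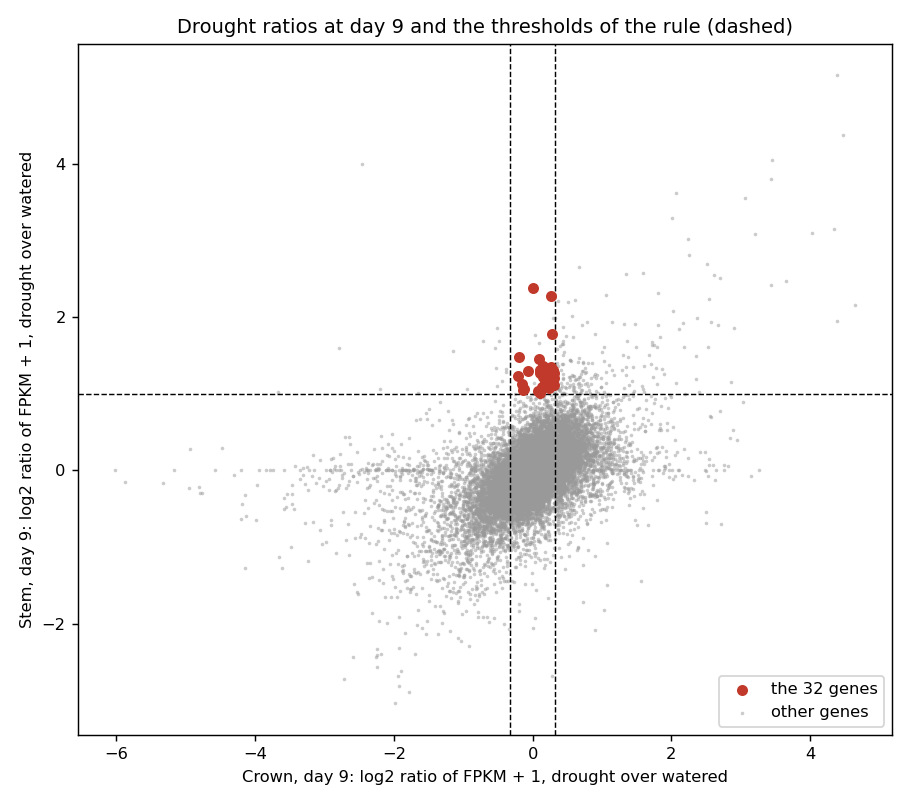
Log2 ratio of FPKM + 1, drought over watered, at day 9 in the stem (vertical axis) against the crown (horizontal axis), with 1 point per gene; red points are the 32 genes and dashed lines are the ratio thresholds of 2 in the stem and of 0.8 and its reciprocal in the crown. The 32 genes sit above the horizontal line between the vertical lines, 29 of them at stem values from 1.01 to 1.48 and the 3 others higher; grey points in the same window had under 5 FPKM in drought stems.

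The 3 largest stem ratios at day 9 belonged to genes with low levels in watered stems. Sevir.6G121900 (chromosome 6, 19591184 to 19591869) had 7.16 FPKM in drought stems and 0.574 FPKM in watered stems at day 9. In the day 9 crown it had 0 FPKM under both regimes. Its crown ratio of 1 therefore rests on the pseudocount, and it was the 1 member not listed for drought against watered crowns at day 9. In the authors' deposited table its stem difference was not called (adjusted p = 0.318). Sevir.2G029800 (chromosome 2, 2358851 to 2365035) had 10.9 FPKM in drought and 1.46 FPKM in watered stems, against a crown level of 48.5 FPKM under drought and 40.2 FPKM with water. Sevir.5G025700 (chromosome 5, 1833327 to 1839833) had 5.24 FPKM in drought and 0.814 FPKM in watered stems, with crown levels of 37.1 FPKM under drought and 30.4 FPKM with water. For these last 2 genes even the drought stem stayed far below either crown group.

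The other 29 genes had stem ratios between 2.01 and 2.79. Among the abundant ones, Sevir.8G262000 (chromosome 8, 39807865 to 39808225) stood at 1318 FPKM in drought and 472 FPKM in watered stems at day 9. Its crown had 719 FPKM under drought and 825 FPKM with water, so that the drought stem exceeded both crown groups of that day. Sevir.7G286800 (chromosome 7, 31525322 to 31529781) had 283 FPKM in drought and 135 FPKM in watered stems, and Sevir.J008600 (on a scaffold, 1297 to 2158) had 171 FPKM in drought and 72.4 FPKM in watered stems. Sevir.4G024700 (chromosome 4, 1753934 to 1758990), whose position entry is also that of 1 other gene, so that reads of the pair may not be separable, had 130.1 FPKM in drought and 63.2 FPKM in watered stems. Sevir.3G093200 (chromosome 3, 6175081 to 6176396) had 114 FPKM in drought and 52.1 FPKM in watered stems. These 5 were the members with at least 100 FPKM in drought stems, while 11 members had between 5 and 10 FPKM.

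In 3 further genes the day 9 stem levels lay on either side of the crown levels. Sevir.5G154900 (chromosome 5, 13583979 to 13585392) had 40.1 FPKM in drought and 14.0 FPKM in watered stems, and its crown had 28.8 FPKM under drought and 27.0 FPKM with water. Sevir.6G028900 (chromosome 6, 2256869 to 2263820) had 53.2 FPKM in drought and 20.2 FPKM in watered stems, with 38.7 FPKM in drought and 34.8 FPKM in watered crowns. For Sevir.9G102300 (chromosome 9, 6206320 to 6209830) the stem had 53.4 FPKM under drought and 21.3 FPKM with water, and the crown had 35.8 FPKM under drought and 30.5 FPKM with water. In each of these 3 genes the watered stem lay below both crown groups and the drought stem above them. Sevir.7G101100 (chromosome 7, 18519003 to 18519928) differed, since its stem values of 55.0 FPKM under drought and 22.1 FPKM with water were both far under its crown values of 306 FPKM in drought and 280.3 FPKM in watered plants. Lower in level were Sevir.2G140100 (chromosome 2, 14998531 to 15002474), Sevir.5G372200 (chromosome 5, 39316133 to 39319291) and Sevir.6G118400 (chromosome 6, 17407866 to 17412567), with 7.18, 9.95 and 6.24 FPKM in drought stems and 2.21, 3.40 and 1.93 FPKM in watered stems.

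The remaining members had between 6.08 and 33.1 FPKM in drought stems at day 9. Sevir.8G058200 (chromosome 8, 5094705 to 5096048) had the most, with 33.1 FPKM in drought and 15.7 FPKM in watered stems and 27.8 FPKM in drought and 26.3 FPKM in watered crowns. Sevir.6G256900 (chromosome 6, 35179661 to 35181669) had 19.2 FPKM in drought and 7.42 FPKM in watered stems, and its crown was higher in both regimes, at 45.5 FPKM under drought and 36.4 FPKM with water. Sevir.1G255800 (chromosome 1, 31992978 to 31996434) had 19.0 FPKM in drought and 7.16 FPKM in watered stems, beside 15.5 FPKM in drought and 16.3 FPKM in watered crowns. In Sevir.2G133400, Sevir.8G162900 and Sevir.3G228900 the drought stem, with 17.1, 16.9 and 12.6 FPKM, came nearer to the crown than the watered stem, with 7.79, 7.30 and 5.32 FPKM, and stayed below the drought crown, which had 20.8, 20.0 and 20.9 FPKM. The low members Sevir.3G318400, Sevir.3G066500, Sevir.2G443600, Sevir.5G332800 and Sevir.8G218600 had 6.08 to 8.35 FPKM in drought stems and 1.93 to 3.06 FPKM in watered stems.

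By the authors' test, 29 of the 32 were called higher under drought in the day 9 stem at an adjusted p under 0.05. At an unadjusted p under 0.05, 31 passed, and 18 passed when p-values were adjusted within that comparison alone. Of all 18145 genes listed there, 1.26% were called higher, but the members were chosen by this contrast and the count is not evidence of it. The 3 not called were Sevir.6G121900, Sevir.2G443600 and Sevir.5G332800, the last 2 with adjusted p of 0.15 and 0.105 in the authors' deposited table. In the day 9 crown, 31 members were listed, and the authors' Cuffdiff test called 0 of them in either direction, with 0 at an unadjusted p under 0.05 and a smallest adjusted p of 0.559, against 2.20% of listed genes called higher and 4.17% called lower. This count, too, follows from the rule. Within the limits of the rule, the day 9 crown ratio of FPKM + 1 was above 1 for 25 of the 32, against 50.01% of all genes. Its median log2 value was 0.14 for the members and 0.0001 over all genes, and this lean was not tested. The difference between the stem and the crown response was itself not tested for any gene, because such a test needs library values.

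At the stem threshold and the upper crown limit, the nearest members differed little in ratio from the nearest genes outside. Sevir.1G231100 and Sevir.4G024700 were the closest inside the stem threshold, with ratios of 2.01 and 2.04, the first at 9.40 FPKM in drought and 4.18 FPKM in watered stems, and Sevir.5G434000 and Sevir.9G073700 were the closest outside, with 1.96 and 1.95. At the upper crown limit, Sevir.6G256900 lay inside at 1.243 and Sevir.2G386500 outside at 1.254. At the lower crown limit the gap was wider, with Sevir.J008600 inside at 0.864 and Sevir.8G261800 outside at 0.766. At the limit on level, Sevir.5G025700 was the lowest inside with 5.24 FPKM and Sevir.6G044000 the highest outside with 4.60 FPKM in drought stems.

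**Figure D2:**
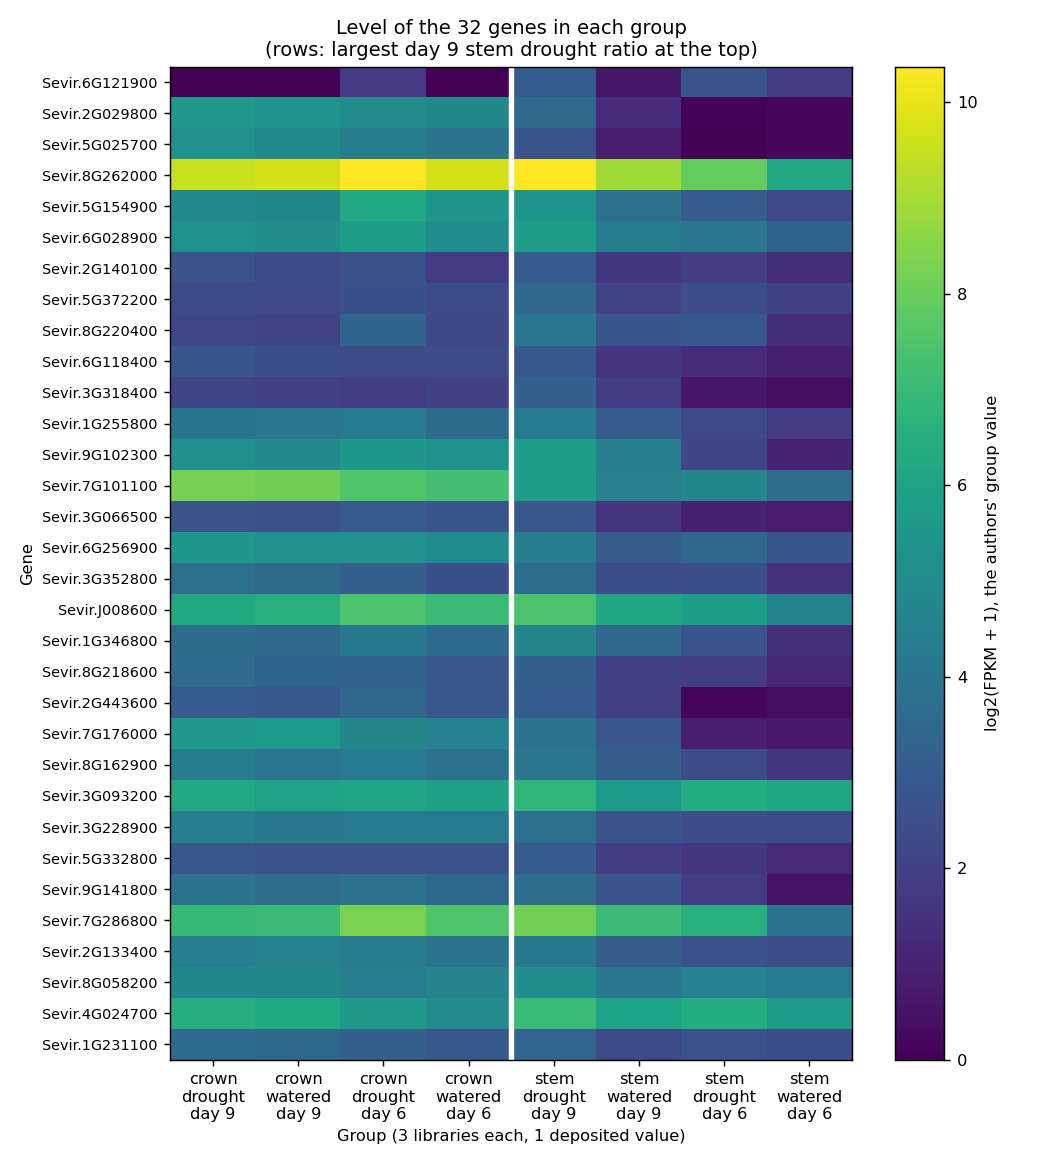
Level of the 32 genes as log2(FPKM + 1) in the 8 groups (columns; crown on the left, stem on the right, drought left of watered), with rows ordered by the day 9 stem drought ratio. In 23 of the 32 rows each of the 3 right-hand columns, which are the watered day 9 stem and both day 6 stems, is below the drought day 9 stem and below all 4 crown groups. The rule itself sets the watered day 9 stem below the drought day 9 stem in every row. The share of all genes with this order was not counted, so the 23 are a description.

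Across all 8 groups, the median level of the 32 genes was 15.1 FPKM in drought and 5.91 FPKM in watered stems at day 9, and 4.59 FPKM in drought and 2.30 FPKM in watered stems at day 6. In the crown the medians were 20.4 FPKM under drought and 16.8 FPKM with water at day 9, and 19.1 FPKM under drought and 14.5 FPKM with water at day 6. Over all genes the group medians lay between 9.85 and 10.6 FPKM. The drought day 9 stem was the highest of the 8 groups for 14 members. For 10 members the highest was the drought day 9 crown, for 6 the drought day 6 crown and for 2 the watered day 9 crown, and for 0 members was it any of the remaining groups. The rule favours the drought day 9 stem and keeps the watered day 9 stem from being the highest group. This ranking is therefore a description, and the same ranking over all genes was not counted.

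Drought against watered plants in the day 6 stem used no group of the rule and asked whether the same genes had responded earlier. Of the 32 genes, 25 were listed in the authors' deposited table, and the other 7 had at most 1.501 FPKM in either group. Among the 25, the authors called 10 higher under drought, while 0.528% of all 17795 genes listed were called higher. The authors' Cuffdiff test called 0 members lower (background 0.916%), with 14 higher and 0 lower at an unadjusted p under 0.05. The share of all listed genes at that unadjusted limit was not counted, so the 14 have no background here. Over all 32 genes the ratio of FPKM + 1 was above 1 for 29, and the median log2 ratio was 0.61, beside -0.02 over all 20865 genes, of which 46.6% had a ratio above 1. The 3 members with a ratio under 1 were Sevir.2G029800, Sevir.5G025700 and Sevir.2G443600, each with under 1 FPKM in both day 6 stem groups.

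The largest day 6 value was that of Sevir.7G286800, with 92.4 FPKM in drought and 14.7 FPKM in watered stems, and the authors' deposited table lists it with a log2 fold change of 2.65 (adjusted p = 0.00091). Sevir.8G262000 had 240.1 FPKM in drought and 75.4 FPKM in watered stems at day 6, which is 1.67 on the log2 scale at the same adjusted p in the authors' deposited table. For both, the difference at day 6 was larger on the log scale than at day 9, where it was 1.07 and 1.48 in the authors' deposited table. Sevir.9G141800 (chromosome 9, 9049003 to 9051818) had 2.53 FPKM in drought and 0.438 FPKM in watered stems at day 6, or 2.53 on the log2 scale in the authors' deposited table (adjusted p = 0.0352). Its day 9 stem values were 12.2 FPKM under drought and 5.27 FPKM with water. Sevir.8G220400 (chromosome 8, 35745042 to 35746286) had 6.15 FPKM under drought and 1.53 FPKM with water in the day 6 stem, where the authors' deposited table lists a log2 fold change of 2.004 (adjusted p = 0.0187). On day 9 its stem had 15.9 FPKM under drought and 5.83 FPKM with water. With Sevir.1G346800, these were the 5 members whose log2 ratio of FPKM + 1 under drought was at least as large in the day 6 stem as in the day 9 stem.

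The other day 6 calls had smaller differences or lower levels. Sevir.1G346800 (chromosome 1, 38833670 to 38836356) stood at 5.45 FPKM in drought and 1.69 FPKM in watered stems, and the log2 fold change listed in the authors' deposited table was 1.69 (adjusted p = 0.00915). Sevir.9G102300 had 3.47 FPKM in drought and 0.973 FPKM in watered day 6 stems, or 1.83 on the log2 scale in the authors' deposited table (adjusted p = 0.0451). The remaining calls were Sevir.3G352800 (chromosome 3, 42354864 to 42360414), Sevir.7G101100, Sevir.J008600 and Sevir.6G028900, whose log2 fold changes in the authors' deposited table were 1.33, 1.13, 1.104 and 0.82. Each of the 10 was also called at day 9. The authors adjusted p-values over all tables jointly, which leaves the rate of false calls in any single table unknown. Adjusted within the day 6 stem table alone, only Sevir.7G286800 and Sevir.8G262000 passed, both at an adjusted p of 0.0254.

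**Figure D3:**
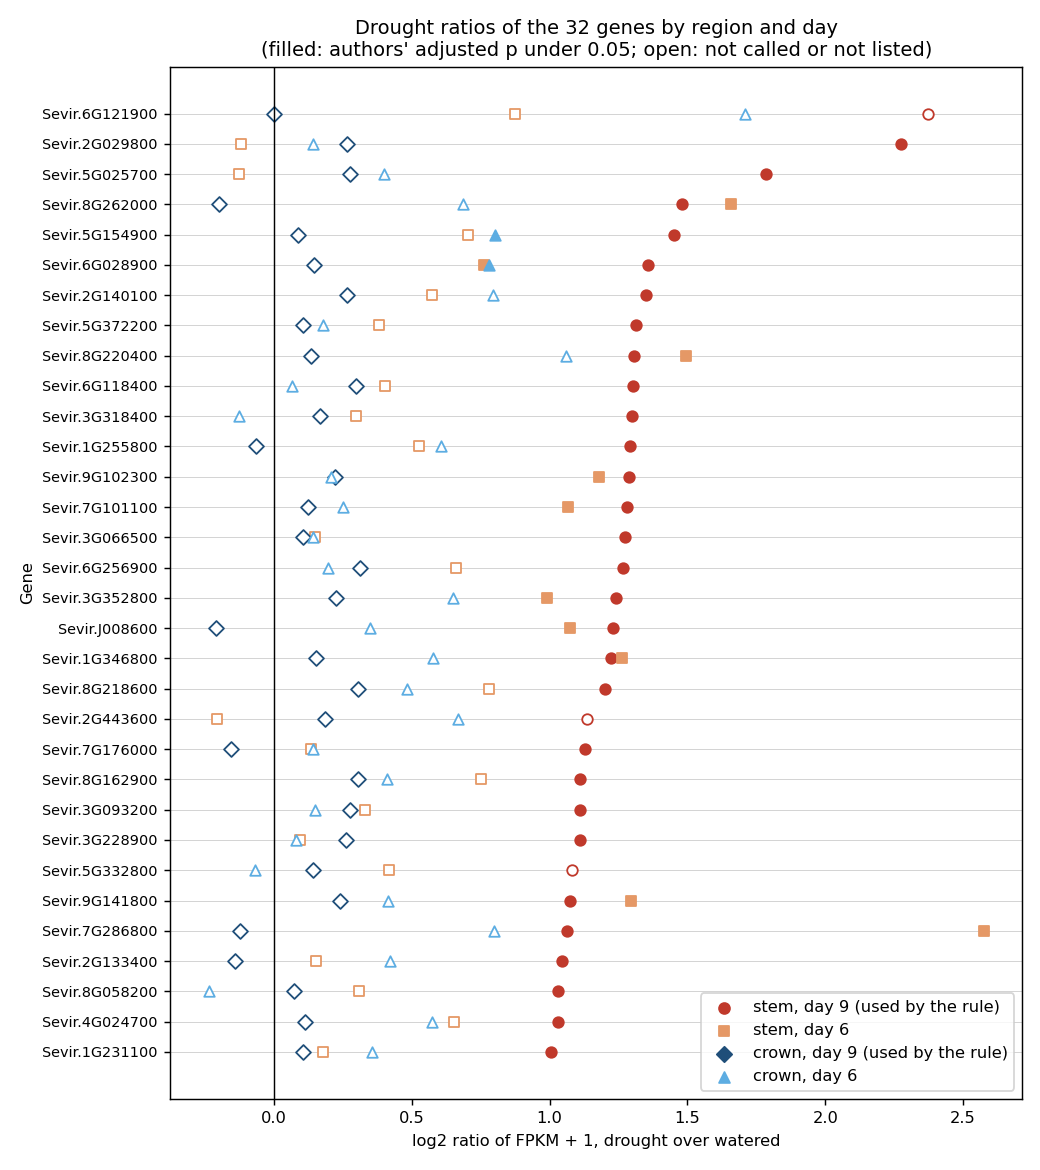
Log2 ratio of FPKM + 1, drought over watered, for each of the 32 genes (rows) in the stem at day 9 and day 6 and in the crown at day 9 and day 6; filled symbols were called by the authors at an adjusted p under 0.05. The day 9 stem (red) and day 9 crown (dark blue) values are set apart by the rule, and the day 6 stem values, from -0.21 to 2.57, spread over the space between and beyond them.

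In the day 6 crown, drought and watered plants were likewise compared with no group of the rule. Of 31 members listed, the authors called 2 higher, where 0.500% of all 18417 listed genes were. These were Sevir.6G028900, with 55.9 FPKM in drought and 32.1 FPKM in watered crowns, and Sevir.5G154900, with 76.8 FPKM in drought and 43.6 FPKM in watered crowns. Their log2 fold changes were 0.80 (adjusted p = 0.0198) and 0.82 (adjusted p = 0.0264) in the authors' deposited table. Sevir.6G028900 was the 1 gene called in both regions at day 6. The Cuffdiff test called 0 lower (background 1.58%), and at an unadjusted p under 0.05 there were 10 higher and 0 lower. Again the share of all listed genes at the unadjusted limit was not counted, and the backgrounds given are for adjusted calls. Adjusted within the table alone, neither of the 2 passed.

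Most members nevertheless had a somewhat higher value in the drought crown at day 6. The FPKM + 1 ratio was above 1 for 29 of the 32, against 45.8% of all genes, and the median log2 ratio was 0.41, against -0.03 over all genes. Sevir.8G262000 reached 1323 FPKM in drought and 823 FPKM in watered crowns at day 6, and Sevir.7G286800 had 313 FPKM in drought and 179 FPKM in watered crowns. Neither was called in the authors' deposited table (adjusted p = 0.124 and 0.0706). At day 9 Sevir.7G286800 had 123 FPKM in drought and 135 FPKM in watered crowns, both below its day 6 levels. The members were selected for a small crown difference at day 9, which sets no limit on the crown at day 6.

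Crown against stem at day 6, again in groups that the rule did not use, gave a larger median difference among these genes than drought against water at that day. Under drought, 18 of the 32 members listed were called crown-higher and 1 crown-lower in the authors' deposited table, whereas 6.44% of all listed genes were crown-higher and 10.7% crown-lower. In watered plants the count was 20 higher and 1 lower of 31 listed, with 8.30% and 12.3% of all 18620 listed genes as background. All of the 18 called under drought were also called in watered plants. The median log2 ratio of FPKM + 1, crown over stem, was 1.74 in drought and 1.89 in watered plants for the 32 genes, and 0.03 in drought and 0.05 in watered plants over all genes. In pieces of tissue, more cells that express a gene and more RNA per cell cannot be told apart, which holds for every level given here.

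Sevir.9G102300 had 45.1 FPKM in crowns and 3.47 FPKM in stems of drought plants at day 6. In watered plants it had 39.0 FPKM in crowns and 0.973 FPKM in stems, the largest called region difference there (5.33 on the log2 scale, adjusted p = 0.00091, in the authors' deposited table). Sevir.7G176000 (chromosome 7, 23855276 to 23857420) had 25.4 FPKM in drought crowns and 0.815 FPKM in drought stems, and 23.0 FPKM in watered crowns and 0.654 FPKM in watered stems, and the authors' deposited tables list log2 fold changes of 4.96 under drought and 5.13 with water (adjusted p = 0.00091 in each). Sevir.5G154900 had 43.6 FPKM in watered crowns and 3.86 FPKM in watered stems. Sevir.8G262000 had 823 FPKM in watered crowns and 75.4 FPKM in watered stems, and Sevir.7G286800 had 179 FPKM in watered crowns and 14.7 FPKM in watered stems. The 1 member called lower in the crown was Sevir.4G024700, at 46.9 FPKM in drought crowns and 83.5 FPKM in drought stems and at 31.2 FPKM in watered crowns and 52.8 FPKM in watered stems (log2 fold change -0.76 in watered plants, adjusted p = 0.0391, in the authors' deposited table). Sevir.6G121900 and Sevir.3G093200 also had less FPKM in the crown than in the stem in both regimes, and Sevir.8G058200 under drought, and none of these differences was called, Sevir.6G121900 not being listed for watered plants.

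A group of 6 members had very low levels in the stem at day 6, with under 1 FPKM in both the drought and the watered group. They were Sevir.2G029800, Sevir.5G025700, Sevir.3G318400, Sevir.3G066500, Sevir.2G443600 and Sevir.7G176000, singled out after their values were seen. Their crown levels ranged from 2.79 to 51.9 FPKM over the 4 crown groups. In the stem at day 9 they had 5.24 to 14.3 FPKM under drought and 0.814 to 6.00 FPKM with water. Sevir.2G029800 is the clearest case, with 0.0598 FPKM in drought and 0.151 FPKM in watered stems at day 6 although its day 9 stems had 10.9 FPKM under drought and 1.46 FPKM with water. The crown-over-stem difference of this gene at day 6 was nonetheless not called in the authors' deposited tables (adjusted p = 0.483 in drought and 0.223 in watered plants), although its day 6 crown had 30.8 FPKM under drought and 27.8 FPKM with water. For day 9 over day 6 in drought stems, the authors' test called neither Sevir.2G029800 (adjusted p = 0.483), Sevir.5G025700 (0.459) nor Sevir.2G443600 (0.483). Sevir.3G318400, Sevir.3G066500 and Sevir.7G176000 were called higher at day 9 in that comparison.

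**Figure D4:**
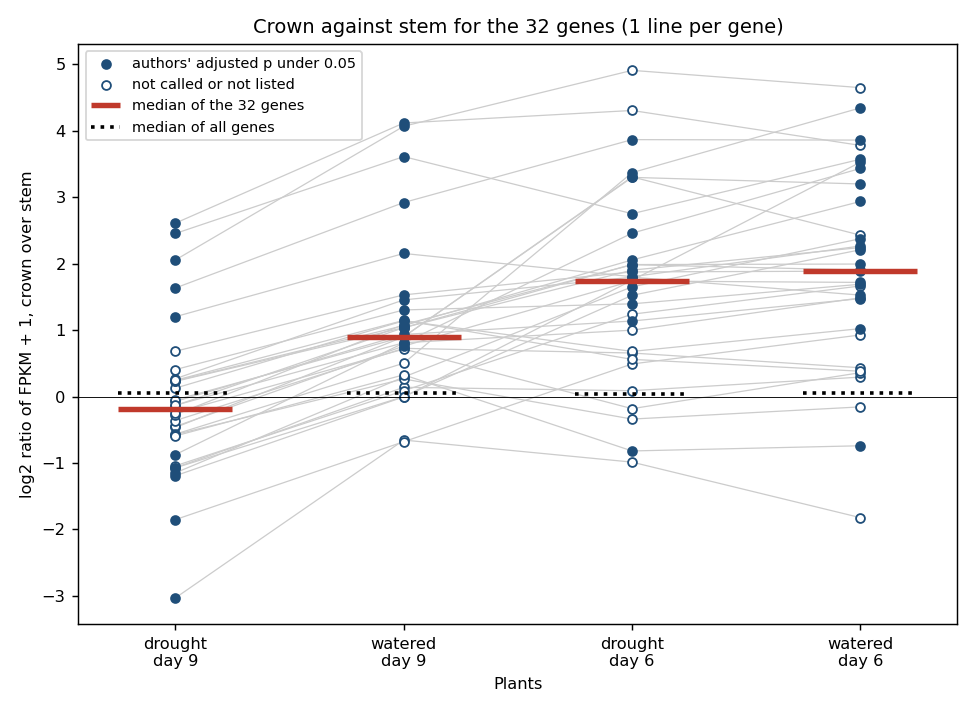
Log2 ratio of FPKM + 1, crown over stem, for each of the 32 genes in drought and watered plants at day 9 and day 6 (grey lines join the values of 1 gene); filled points were called by the authors, red bars are medians of the 32 genes and dotted bars medians of all genes. Medians are -0.19 in drought plants and 0.90 in watered plants at day 9, and 1.74 in drought plants and 1.89 in watered plants at day 6.

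At day 9 the crown-over-stem ratio of FPKM + 1 has to be lower in drought than in watered plants. The rule asks for a higher drought stem at a similar crown level, so the following values are a description. The size of the difference need not be smaller under drought, because the drought stem can exceed the crown. Under drought at day 9, 5 members were called higher and 7 lower in the crown, with 11.6% and 6.64% of all genes as background. In watered plants at day 9, 16 of 31 listed members were called higher in the crown (12.0% of all genes) and 0 lower (6.88% of all genes), with 20 higher and 0 lower at an unadjusted p under 0.05 in the authors' Cuffdiff test. In drought plants the 5 with a higher crown were Sevir.2G029800, Sevir.5G025700, Sevir.7G101100, Sevir.6G256900 and Sevir.7G176000, and the 7 with a lower crown were Sevir.8G262000, Sevir.7G286800, Sevir.J008600, Sevir.1G346800, Sevir.8G220400, Sevir.5G372200 and Sevir.6G121900, of which 5 were among the day 6 stem calls. As a percentage of the crown's FPKM, the stem's level had a median of 112% in drought and 46.2% in watered plants at day 9, over the 31 genes with a crown value above 0, and of 27.7% in drought and 18.7% in watered plants at day 6, over 32 and 31 genes.

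The stem values of the members were mostly higher at day 9 than at day 6 with and without drought. Both comparisons share a day 9 stem group with the rule, so they too are descriptive. In drought stems all 32 had a higher FPKM at day 9 (49.95% of all genes), and the authors called 23 of the 32 higher (4.08% of all genes). In watered stems the rule asked for a low day 9 value relative to drought. There 28 of 32 had a higher FPKM at day 9 (47.97% of all genes), and 13 of 27 listed were called higher (4.41% of all genes). Sevir.9G102300 had 53.4 FPKM at day 9 and 3.47 FPKM at day 6 in drought stems, and 21.3 FPKM at day 9 and 0.973 FPKM at day 6 in watered stems. Sevir.7G286800 had 135 FPKM in watered stems at day 9 and 14.7 FPKM at day 6, so that its watered stem at day 9 also exceeded its drought stem at day 6, which stood at 92.4 FPKM. This order, with the watered day 9 stem at or above the drought day 6 stem, held for 21 of the 32 genes. Its share over all genes was not counted.

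In the crown the members called with age went both ways under drought and were all higher at day 9 with water. In drought crowns the authors called 3 of 31 listed members higher at day 9 than at day 6 (7.97% of all genes) and 4 lower (2.59% of all genes). The 4 lower were Sevir.7G286800, Sevir.8G262000, Sevir.J008600 and Sevir.5G154900, the last with 28.8 FPKM at day 9 and 76.8 FPKM at day 6. The 3 higher were Sevir.4G024700, Sevir.5G025700 and Sevir.7G176000, the last with 46.4 FPKM at day 9 and 25.4 FPKM at day 6. In watered crowns 5 of 31 were called higher (8.56% of all genes) and the authors' Cuffdiff test called 0 lower (2.0% of all genes, 388 of 19408), with 7 higher and 2 lower at an unadjusted p under 0.05.

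Set beside the 118 genes that met the same stem criteria but had a day 9 crown ratio above the upper limit, the 32 had a day 6 crown-over-stem median log2 ratio of 1.89 in watered plants, where the 118 had 0.68. By calls the 2 sets lay closer, with 64.5% of 31 listed among the 32 and 48.5% of 103 listed among the 118 crown-higher. Under drought these shares were 56.2% of 32 and 47.9% of 117. The 7 genes that met the stem criteria with a day 9 crown ratio below the lower limit had a median of 1.99 in watered plants at day 6, with 4 of 5 listed called crown-higher, close to the median of the 32. In the day 6 stem 40.0% of the listed genes were called higher under drought in both sets, 10 of 25 and 40 of 100. In the day 6 crown 6.45% of the 31 listed among the 32 and 24.3% of the 111 listed among the 118 were called higher under drought. A drought-to-watered ratio of FPKM + 1 above 1 in the day 6 crown was common to all 3 sets. It was found in 90.6% of the 32, 92.4% of the 118 and 85.7% of the 7, with median log2 ratios of 0.41, 0.57 and 0.28. These sets were defined from day 9 values, and the differences between them were not tested.

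The 32 genes were spread over the genome. They lay on all 9 chromosomes and 1 scaffold, with 5 each on chromosomes 3 and 8, which hold 12.3% and 5.72% of the genes measured, 4 each on chromosomes 2, 5 and 6, and 2 on chromosome 9, which holds 18.3%. No pair of members were neighbours in the order of measured genes. The closest pair was Sevir.8G218600 (chromosome 8, 35440282 to 35443643) and Sevir.8G220400, separated by 301.4 kb and 9 measured genes. The genomic span of the members had a median of 2751.5 bases, from 361 to 11486, against a median of 3592 bases over all genes. The most abundant member, Sevir.8G262000, was also the shortest.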

How the data were processed

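RNA-seq was deposited as 28 tables, 1 for each pair of the 8 groups of 3 libraries. Reads were handled with FastQC, cutadapt and Cuffdiff, per the submitters' processing notes. No source used here gives their versions, the aligner or the genome build, and positions are those of the files. Per the file headers, each table gives the authors' FPKM of both groups, the log2 fold change, and a p-value and q-value (adjusted p) per gene. FPKM values of a group were identical between tables. Recomputed jointly over the 531416 rows, Benjamini-Hochberg values matched the deposited q-values within 5.3e-07. Listed rows had at least 1.97 FPKM in the higher group, and a gene not listed in a table was taken as not tested there.

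From these values the member rule was applied with a pseudocount of 1 FPKM, which understates the change of low genes, and authors' calls at an adjusted p under 0.05 were counted over members and over all listed genes. Counts at an unadjusted p under 0.05 were taken over members only, so they have no background. The sign of deposited fold changes was set to drought over watered, crown over stem and day 9 over day 6. The members and all lists were chosen with earlier results of these data known. Genes are named as the 10 largest day 9 stem ratios, the 8 highest drought stem levels, the members called at day 6 and those nearest a threshold; any other gene was picked with its values known or appears as part of a complete count. Gene lists by function had 0 members, because 0 identifiers matched the 34587 genes of the reference table, and no sequence was used here. The rule and the adjustment were tested on simulated data. Python 3.11.15, pandas 2.3.3, NumPy 2.4.6 and matplotlib 3.10.9 were used. Alternatives were other pseudocounts, thresholds, scaling and adjustment within a table.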

Additional observations from a re-analysis of the deposited data

How the results depend on the processing

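The day 6 median ratios kept their direction in all alternatives run. The counts of calls depended on the threshold and the adjustment, and some fell to 0. The 32 members became 21 with a minimum of 10 FPKM in drought stems, 14 with a crown ratio between 0.9 and about its reciprocal, and 3 with a stem ratio of at least 3, while other pseudocounts, a minimum of 2 FPKM or 75th percentile scaling gave 30 to 43. After that scaling 23 of the 32 remained, among 30. The 10 members called higher in the day 6 stem became 2 when p-values were adjusted within the table, 3 at an adjusted p under 0.01 and 5 when the higher group had to reach 10 FPKM. In the day 6 crown the 2 became 0 with each of adjustment within the table, an adjusted p under 0.01 and a 2-fold minimum, in Cuffdiff's test with 10 higher at an unadjusted p under 0.05. The crown-over-stem counts at day 6 stayed within 1.5 times for higher genes, and the 1 lower gene became 0 in both regimes at an adjusted p under 0.01 or with a 2-fold minimum, and 2 in watered plants with members chosen without a pseudocount. With a pseudocount of 0.1 the median log2 ratio of the day 6 stem was 0.76 and that of crown over stem in watered plants 2.33; for members with at least 10 FPKM in drought stems they were 0.75 and 2.24. The fall of counts under stricter limits follows from their construction, and for the rest the cause was not tested. No paired analysis was possible because the tables hold 1 value per group and the columns carry no replicate; leaving out replicates was not run for the same reason. Depth is unknown, and a member with under 2 FPKM in both groups of a table was mostly not tested there.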

Other observations

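Of the 228 genes that the authors called higher under drought in the day 9 stem, 70 were also called higher in the day 9 crown and 2 lower, 150 were listed but not called there, and 6 were not listed in the crown table of the authors. Absence of a call in the crown was thus not the same as a crown ratio near 1. Among the 150, the crown ratio of FPKM + 1 was within the limits of the rule for 51, above it for 97 and below it for 2, with a median log2 ratio of 0.42 in the crown beside 1.09 in the stem. Of the 51, 29 were members of the set described above, and the other 22 missed its minimum level or stem ratio. One gene just outside the set, Sevir.8G261800, stood at 7081 FPKM in drought and 2824 FPKM in watered stems at day 9 and at 3921 FPKM in drought and 5116 FPKM in watered crowns, and carries an identifier close to that of the most abundant member, Sevir.8G262000.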
